A study of Mus musculus with 18 samples.

Results

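The 10 genes described here are the immediate early and AP-1 genes Fos, Fosb, Fosl1, Fosl2, Jun, Junb, Jund, Egr1, Egr2 and Myc. They were found by gene name among the 51499 loci of the table, of which 13032 reached 1 FPKM (fragments scaled to transcript length and library size) in any group. The cells were mouse embryonic fibroblasts, labelled either Ago2+/+ or Ago2-/-, that is, with or without Argonaute 2, the slicing protein of RNA silencing. Each genotype received the solvent DMSO, tunicamycin, an inhibitor of protein N-glycosylation, or 500 nM thapsigargin, which blocks the calcium pump of the endoplasmic reticulum (both stress that organelle). For the sequenced cells the methods give tunicamycin at 3 µg per ml, and 6 h with either stressor. Each of the 6 groups comprised 3 libraries, and the deposited table gives 1 FPKM per group over them. Titles and table name the Ago2+/+ groups DCR1. The sources used here do not give the number of independent fibroblast lines per genotype, and the methods name DMSO as the solvent control of these cells but call those without stressor untreated where they describe the sequencing.

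Immediate early genes are transcribed within minutes of a stimulus such as serum, growth factors or stress, from promoters whose factors are already present in the cell. FOS and JUN proteins pair through leucine zippers to form AP-1, which binds DNA and regulates genes of proliferation, migration and matrix turnover. EGR1 and EGR2 are zinc-finger factors induced by the same MAP kinase signals, and MYC pairs with MAX to drive growth and ribosome production.

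The labels went against the data in several places. Under the Ago2+/+ label, Ago2 itself stood at 22.1 FPKM with DMSO, 5.75 with tunicamycin and 17.0 with thapsigargin. Under the Ago2-/- label it stood at 5.61 FPKM with DMSO, 15.5 with tunicamycin and 20.7 with thapsigargin. Ago2 was thus low in 1 group of each genotype label. The Y-linked Ddx3y was at 23.3 FPKM in Ago2+/+ thapsigargin and 24.7 in Ago2-/- tunicamycin, and listed at 0 in the other 4 groups. For 4 libraries the labels also conflict on genotype. Group names below are therefore labels only, and every direction by genotype or treatment rests on them. Of 12 fibroblast markers, 9 reached 1 FPKM in all 6 groups, with summed levels of 3127 to 4066 FPKM, while Thy1 was listed at 0 throughout. The sum hides single markers that differed widely between groups. Col1a1 ran from 5.97 FPKM in Ago2-/- DMSO to 651 in Ago2-/- tunicamycin, Fn1 from 46.4 in Ago2+/+ DMSO to 599.5 in Ago2-/- tunicamycin, and S100a4 from 285 in Ago2+/+ thapsigargin to 1967 in Ago2+/+ DMSO. Like the 10 genes, these markers were at similar levels in Ago2+/+ tunicamycin and Ago2-/- DMSO, with Col1a1 at 6.77 and 5.97 FPKM, and their part in the results was not tested. None of 6 epithelial or 6 endothelial markers reached 1 FPKM in any group, and of the haematopoietic and skeletal muscle markers only Cd68 and Des did. The neural marker Map2 was at 12.2 to 23.2 FPKM in 4 groups and at 0.00243 and 0.00909 FPKM in Ago2+/+ tunicamycin and Ago2-/- DMSO, and its part in the results was not tested.

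Because there is 1 value per group, no spread between libraries can be set beside a difference, no test was made, and neighbours in an order of levels cannot be told apart by error. A difference was counted from 2-fold on the log2(FPKM + 0.1) scale, where at least 1 FPKM was reached in either group. This scale understates the differences of low genes. In bulk RNA, fewer expressing cells and less RNA per cell cannot be told apart.

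Fos, Jun and Junb are the founding and most studied AP-1 genes, and the 250 bases before their starts are shown because Fos had the widest range of levels, and Jun was lowest in the group where Junb was highest. The sequences are from RefSeq on GRCm38.p6, 5′ to 3′ on the gene's strand, at chr12:85473640-85473889 (+) for Fos, chr4:95052223-95052472 (-) for Jun and chr8:84978749-84978998 (-) for Junb. Capitals mark a CRE-like motif.
Fos: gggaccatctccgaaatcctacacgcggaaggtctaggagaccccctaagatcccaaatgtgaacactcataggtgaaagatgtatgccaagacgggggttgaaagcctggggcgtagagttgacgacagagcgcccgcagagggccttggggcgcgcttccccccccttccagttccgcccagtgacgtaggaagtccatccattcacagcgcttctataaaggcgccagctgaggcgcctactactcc
Jun: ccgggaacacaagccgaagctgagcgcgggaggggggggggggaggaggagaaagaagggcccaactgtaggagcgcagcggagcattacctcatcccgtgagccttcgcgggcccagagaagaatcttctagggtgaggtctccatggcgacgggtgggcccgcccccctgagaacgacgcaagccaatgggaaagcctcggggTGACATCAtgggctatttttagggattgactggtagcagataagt
Junb: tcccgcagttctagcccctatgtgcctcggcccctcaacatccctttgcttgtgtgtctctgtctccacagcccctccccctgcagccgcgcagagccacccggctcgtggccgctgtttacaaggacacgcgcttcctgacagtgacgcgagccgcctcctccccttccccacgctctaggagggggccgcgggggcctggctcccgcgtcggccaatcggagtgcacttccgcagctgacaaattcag
Both strands of the 250 bases were searched for an AP-1 motif (TGANTCA), a CRE-like motif (TGACNTCA), an EGR motif (GCGNGGGCG), an E-box (CACGTG) and a CArG box. These occurred in 6.75%, 7.49%, 4.7%, 6.02% and 1.47% of 32851 mouse promoters. Of the 10 genes, 7 had an entry, with 11 starts between them. Jun held the CRE-like motif TGACATCA from -45 to -38 before its start. Fosb and Fosl2 each held an EGR motif, at -50 to -42 and -79 to -71. Egr2 held a CArG box at 4 of its starts and an E-box at another. The CArG matches were CCTTTTTTGG and CCATATATGG, the second being the same bases met in several overlapping windows. None of the 5 motifs was found in these windows of Fos, Junb and Jund. Sites further upstream, or with a base that departs from the pattern, were not searched for.

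Among the FOS family, Fosl1 was the most abundant gene in all 6 groups, and Fos and Fosb were low throughout. Fosl1 (ENSMUSG00000024912, chromosome 19, 5447703 to 5455945, plus strand, in the build GRCm38 of the files) encodes FRA-1, a FOS protein without the transactivation domain of FOS. Under the Ago2+/+ label it was at 72.0 FPKM with DMSO, 165 with tunicamycin and 34.3 with thapsigargin. Under the Ago2-/- label it was at 189.9 FPKM in DMSO, 24.3 in tunicamycin and 116 in thapsigargin. Ago2-/- DMSO and Ago2+/+ tunicamycin were thus the highest and Ago2-/- tunicamycin and Ago2+/+ thapsigargin the lowest, a 7.82-fold range. On the log2 scale Fosl1 was 1.20 higher under tunicamycin than DMSO in Ago2+/+ and 2.96 lower in Ago2-/-. Under thapsigargin it was lower in both, by differences of -1.07 and -0.71. Fosl1 shares its locus region with Ccdc85b on the opposite strand.

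Fosl2 (ENSMUSG00000029135, chromosome 5, 32135801 to 32157842, plus strand) encodes FRA-2, the relative of FRA-1. Its level was 13.6, 38.8 and 27.3 FPKM with DMSO, tunicamycin and thapsigargin in Ago2+/+, against 34.5, 22.5 and 13.7 in Ago2-/-. Ago2+/+ DMSO and Ago2-/- thapsigargin were low and nearly equal. In log2 units, Fosl2 with tunicamycin differed from DMSO by 1.51 in Ago2+/+ and -0.62 in Ago2-/-, and with thapsigargin by 1.00, at the threshold, and -1.33.

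Fos (ENSMUSG00000021250, chromosome 12, 85473890 to 85477273, plus strand) encodes the founding FOS protein. Its level in Ago2+/+ was 0.975 FPKM with DMSO, 4.99 with tunicamycin and 2.1 with thapsigargin. In Ago2-/- it was at 8.59 FPKM in DMSO, 3.72 in tunicamycin and 1.11 in thapsigargin. Fos had the widest range of the 10 genes, 8.80-fold, from its lowest value in Ago2+/+ DMSO to its highest in Ago2-/- DMSO. Its differences from DMSO were 2.24 and 1.03 in Ago2+/+ and -1.19 and -2.85 in Ago2-/-, in the order tunicamycin and thapsigargin. Fosb (ENSMUSG00000003545, chromosome 7, 19302696 to 19310051, minus strand), a FOS relative, was at 0.745, 1.20 and 0.423 FPKM in Ago2+/+ DMSO, tunicamycin and thapsigargin and at 1.76, 0.503 and 0.710 in the Ago2-/- groups in that order. It reached 1 FPKM in 2 groups, Ago2-/- DMSO and Ago2+/+ tunicamycin.

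**Figure D1:**
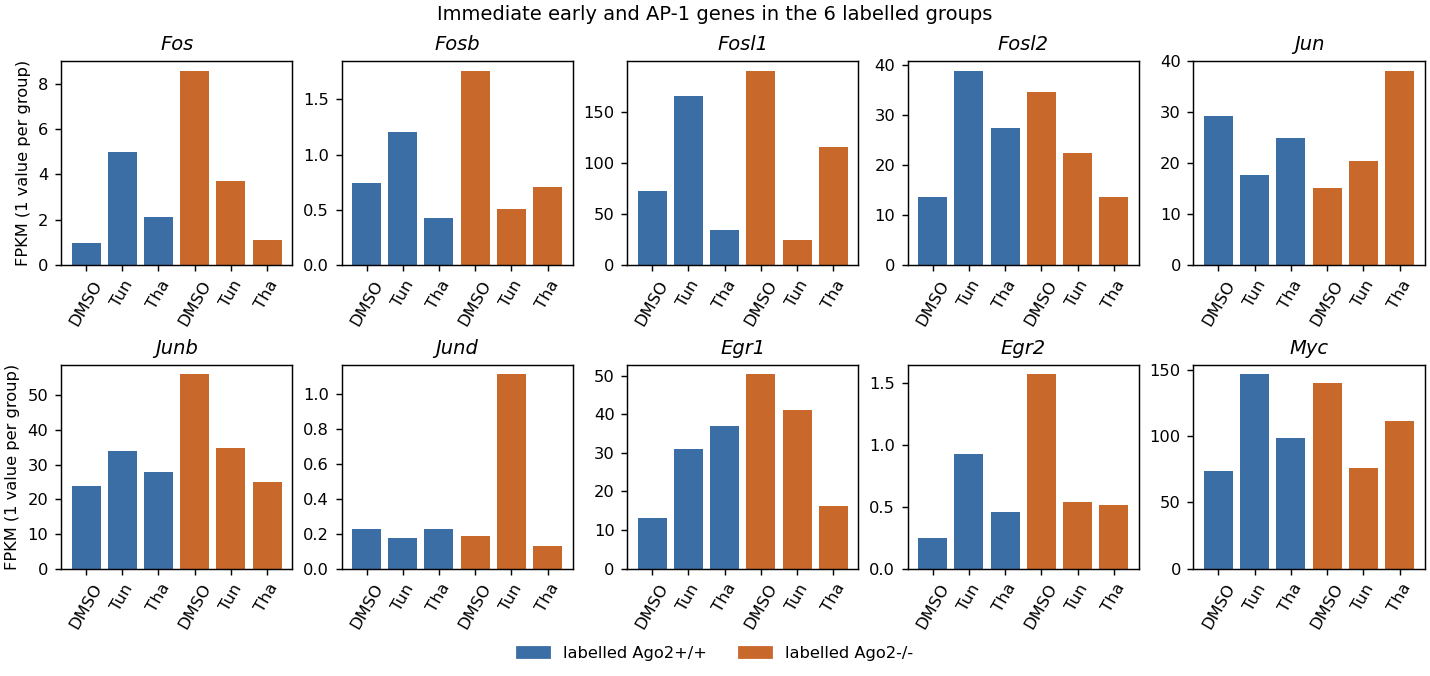
Level in FPKM (linear axis from 0, a scale of its own for each gene) of the 10 genes in the 6 groups, Ago2+/+ in blue and Ago2-/- in orange, with Tun for tunicamycin and Tha for thapsigargin; each bar is 1 pooled value without an error. In 6 of the 10 genes the highest bar is Ago2-/- DMSO, and in Jun that bar is the lowest.

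The composition of the FOS family differed between groups. The summed FPKM of the 4 FOS genes was 87.3, 210.2 and 64.2 in Ago2+/+ DMSO, tunicamycin and thapsigargin and 235, 51.0 and 131 in the Ago2-/- groups in the same order. Fosl1 made up 82.5%, 78.6%, 53.5%, 80.9%, 47.6% and 88.2% of these sums, and Fosl2 15.6%, 18.5%, 42.6%, 14.7%, 44.1% and 10.4%. Fosl1 and Fosl2 were near equal in Ago2+/+ thapsigargin and Ago2-/- tunicamycin, at a ratio of 1.26 and 1.08, and Fosl1 was at 4.26 to 8.47 times Fosl2 in the other 4 groups.

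In the JUN family, Jun was lowest in Ago2-/- DMSO, the group in which Junb was highest. Jun (ENSMUSG00000052684, minus strand of chromosome 4; the table joins it in a locus from 95049034 to 95167318) encodes the main partner of FOS proteins. It was at 29.3, 17.7 and 24.9 FPKM in Ago2+/+ DMSO, tunicamycin and thapsigargin, and at 15.0, 20.4 and 38.1 in Ago2-/-. Jun was highest in Ago2-/- thapsigargin and lowest in Ago2-/- DMSO, and it was the only gene of the 10 with its lowest value there. The thapsigargin difference in Ago2-/- was 1.34 on the log2 scale, and the other 3 stress differences lay between -0.72 and 0.44. Its antisense transcript Junos, whose locus also names n-R5s189, was at 0.392 to 2.41 FPKM.

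Junb (ENSMUSG00000052837, chromosome 8, 84976910 to 84978718, minus strand) encodes a JUN protein that is a weaker activator and a negative regulator of proliferation. It was at 23.8, 34.0 and 28.0 FPKM in Ago2+/+ DMSO, tunicamycin and thapsigargin and at 56.1, 34.8 and 25.1 in Ago2-/-. Ago2-/- DMSO stood above all others, and the other 5 groups lay between 23.8 and 34.8. A second locus that names Junb was listed at 0 in all 6 groups and was not used. By annotation, Junb overlaps Prdx2 on the opposite strand, which was at 144 to 191 FPKM. What this does to the estimate of Junb was not tested. The ratio of Junb to Jun was 0.811, 1.92, 1.12, 3.73, 1.71 and 0.658, so Jun exceeded Junb in Ago2+/+ DMSO and Ago2-/- thapsigargin and Junb exceeded Jun in the other 4. The summed JUN family level varied less, between 52.0 and 71.3 FPKM. This sum and the ratio rest on the loci as listed, and that of Jun is wider than the annotated gene.

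Jund (ENSMUSG00000071076, chromosome 8, 70698949 to 70700616, plus strand) encodes the JUN protein that is usually expressed without a stimulus. It was listed at 0.229, 0.174 and 0.227 FPKM in Ago2+/+ DMSO, tunicamycin and thapsigargin and at 0.188, 1.11 and 0.131 in Ago2-/-. Only Ago2-/- tunicamycin passed the floor of 1 FPKM, so Jund could be counted only through that group. The locus of the table starts 1210 bases downstream of the RefSeq start, and what this does to the estimate was not tested.

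**Figure D2:**
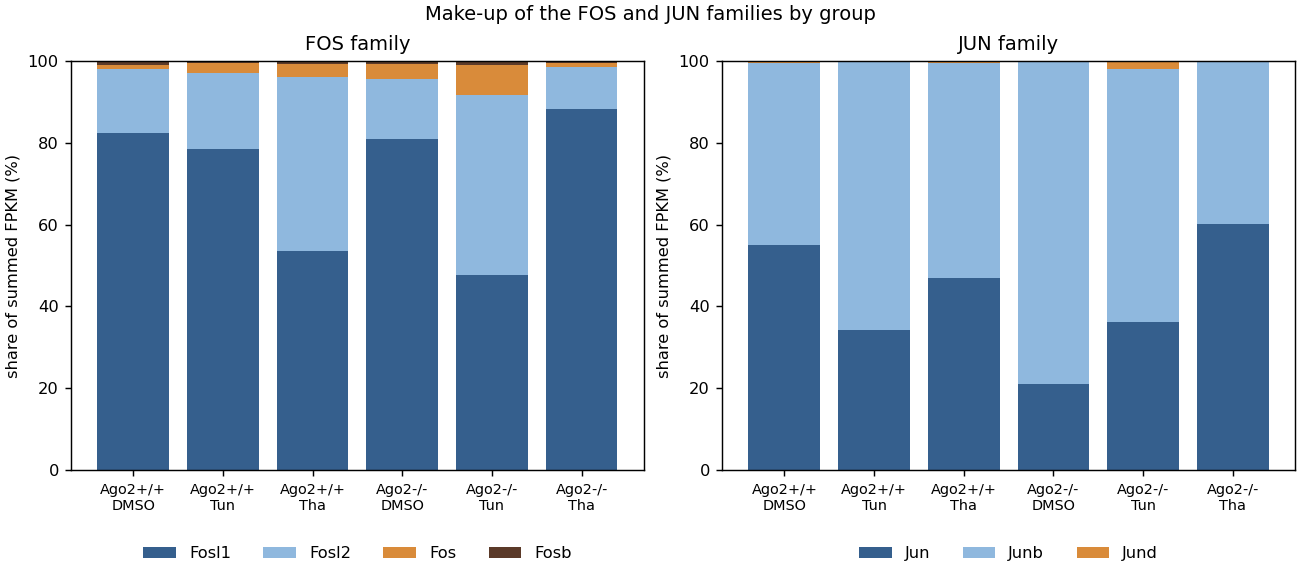
Each gene's share of the summed FPKM of its family, in percent, for the FOS and the JUN family in the 6 groups, 1 pooled value each. Fosl1 holds 47.6% to 88.2% of the FOS sum, and Junb holds 39.6% to 78.6% of the JUN sum. The loci of Jun and Jund depart from the annotated genes, and what this does to the JUN shares was not tested.

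Egr1 and Egr2 differed widely in level. Egr1 (ENSMUSG00000038418, chromosome 18, 34859823 to 34864984, plus strand) was at 13.1, 31.0 and 36.9 FPKM in Ago2+/+ DMSO, tunicamycin and thapsigargin and at 50.3, 41.2 and 16.3 in Ago2-/-. Ago2+/+ DMSO and Ago2-/- thapsigargin were low, and the other 4 groups lay from 31.0 to 50.3 FPKM. Its differences from DMSO were 1.24 and 1.49 in Ago2+/+ and -0.29 and -1.62 in Ago2-/-, for tunicamycin and thapsigargin. Egr2 (ENSMUSG00000037868, chromosome 10, 67535475 to 67542188, plus strand) was at 0.246, 0.923, 0.453, 1.57, 0.539 and 0.510 FPKM in the same order of groups and passed 1 FPKM only in Ago2-/- DMSO.

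Myc (ENSMUSG00000022346, chromosome 15, 61985391 to 61990374, plus strand) had the narrowest range of the 10 genes, 1.98-fold. It was at 73.9, 147 and 98.5 FPKM in Ago2+/+ DMSO, tunicamycin and thapsigargin and at 140.1, 75.7 and 111 in Ago2-/-. Ago2+/+ tunicamycin and Ago2-/- DMSO were highest, and no comparison of Myc passed 2-fold.

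Of the 10 genes, 6 reached 1 FPKM in all groups (Fosl1, Fosl2, Jun, Junb, Egr1 and Myc) and Fos in 5. Fos, Fosb, Jund and Egr2 passed the floor in some comparisons only through the group where they were high. The counts over them are therefore a description. For Fos, at 0.975 FPKM in Ago2+/+ DMSO, these were the comparisons with that group. Between the highest and the lowest group, 9 of the 10 genes passed 2-fold, against 42.6% of the 13032 loci, with a median difference of 1.88 against 0.86 over all loci.

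Tunicamycin in Ago2+/+ went with higher levels of Fos, Fosl1, Fosl2 and Egr1, 4 of 8 genes past the floor, where 10.7% of 12257 loci were higher and 9.31% lower, and none of the 10 genes was lower. Thapsigargin in Ago2+/+ went with higher Fos, Fosl2 and Egr1 and lower Fosl1, among 7 genes, where 10.3% of 12236 loci were higher and 8.71% lower. In Ago2-/- the directions were mostly the other way. Under tunicamycin, Jund was higher and Fos, Fosb, Fosl1 and Egr2 were lower among the 10 genes, with 13.2% of 12399 loci higher and 11.7% lower. Jund, Fosb and Egr2 passed the floor here only through the group where they were high. Of the 6 genes at 1 FPKM or more in all groups, 0 were higher and 1, Fosl1, was lower. Under thapsigargin, Jun was higher and Fos, Fosb, Fosl2, Junb, Egr1 and Egr2 were lower, 6 of 9 genes, with 9.43% of 12274 loci higher and 10.9% lower. Fosb and Egr2 passed the floor here only through Ago2-/- DMSO. Of the 6 genes at 1 FPKM or more in all groups, 3 were higher and 0 lower under tunicamycin in Ago2+/+. In these 6, 2 were higher and 1 lower under thapsigargin in Ago2+/+, and 1 higher and 3 lower under thapsigargin in Ago2-/-. The median differences of the genes past the floor were 1.09, 0.41, -0.79 and -1.20 for the 4 comparisons in this order, and those over all loci lay between -0.0223 and 0.0135. The stressors share the DMSO group of their genotype, so these comparisons are not independent of each other. In addition, Ago2+/+ DMSO lay near Ago2-/- thapsigargin, and Ago2+/+ tunicamycin near Ago2-/- DMSO, as given below. Tunicamycin in Ago2+/+ and thapsigargin in Ago2-/- are thus nearly the same contrast with the sign reversed.

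**Figure D3:**
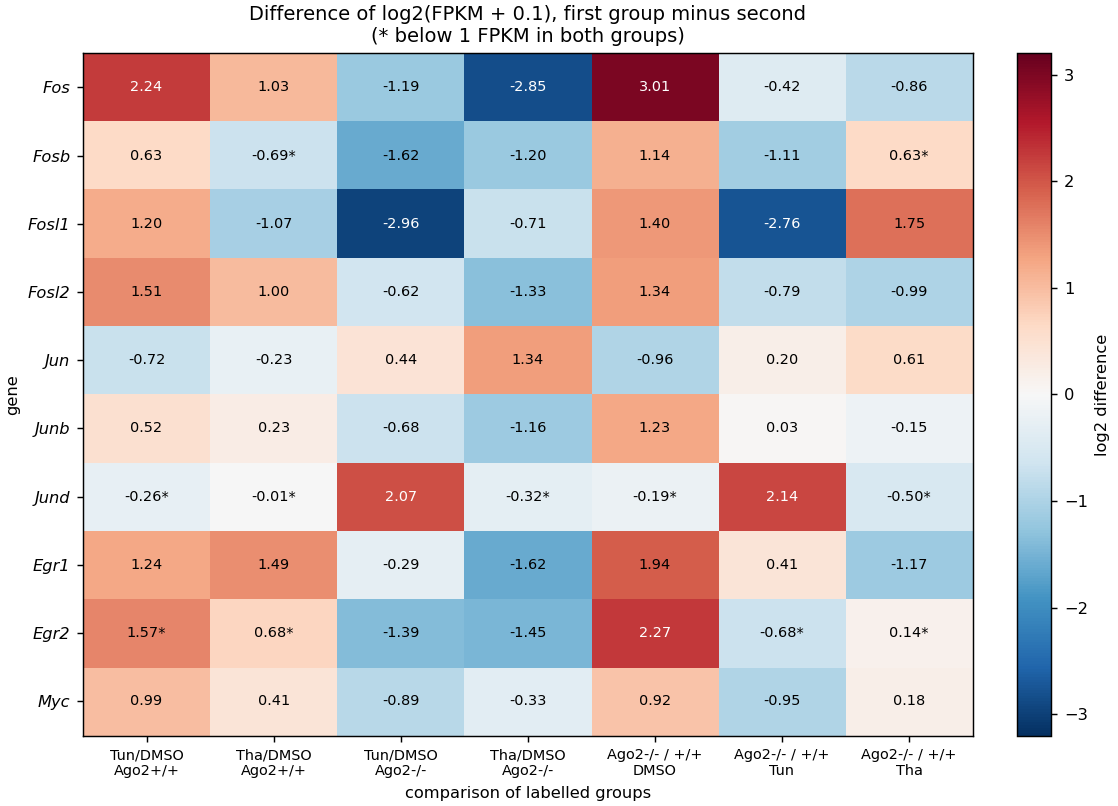
Heat map of the difference of log2(FPKM + 0.1) for the 10 genes (lines) in the 4 stress and the 3 genotype comparisons (columns), red where the first group is higher and blue where it is lower, with no error since each group has 1 pooled value. An asterisk marks a gene below 1 FPKM in both groups. Fos, Fosl2, Junb, Egr1, Egr2 and Myc are positive in both Ago2+/+ stress comparisons and negative in both Ago2-/- ones. These columns are not independent of each other, since the groups lay in close pairs across the labels.

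Of the 15 pairs of groups, the genotypes under DMSO had the largest mean difference over the 10 genes. Ago2-/- DMSO lay near Ago2+/+ tunicamycin, at 0.415 over the 10 genes. This contrast is therefore not independent of tunicamycin against DMSO in Ago2+/+. Fos, Fosb, Fosl1, Fosl2, Junb, Egr1 and Egr2 were higher in Ago2-/- DMSO than in Ago2+/+ DMSO, 7 of 9 genes past the floor, and none was lower, where 10.6% of 12246 loci were higher and 9.42% lower. Of the 6 genes at 1 FPKM or more in all groups, 4 were higher. The differences of the 7 genes ran from 1.14 for Fosb to 3.01 for Fos, and Jun was the other way at -0.96. Fos, Fosb and Egr2 passed the floor here only through Ago2-/- DMSO, where they were high. The differences of the other 4 ran from 1.23 for Junb to 1.94 for Egr1. Under tunicamycin, Jund was higher and Fosb and Fosl1 were lower in Ago2-/-, among 9 genes past the floor. Of 12405 loci, 13.1% were higher and 11.2% lower. Jund and Fosb passed the floor here only through the group where they were high. Of the 6 genes at 1 FPKM or more in all groups, 0 were higher and 1, Fosl1, was lower. Under thapsigargin, Fosl1 was higher by 1.75 and Egr1 lower, at -1.17, among 7 genes past the floor. Of 12251 loci, 8.64% were higher and 10.9% lower.

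The groups lay close to each other in pairs that crossed both labels. Over the 10 genes, the mean absolute log2 difference was 0.362 between Ago2+/+ DMSO and Ago2-/- thapsigargin, 0.415 between Ago2+/+ tunicamycin and Ago2-/- DMSO, and 0.502 between Ago2+/+ thapsigargin and Ago2-/- tunicamycin. In the first and second of these pairs no gene differed by 2-fold, and in the third only Jund did. The other 12 pairs lay from 0.684 to 1.44. Some of these also crossed both labels, such as Ago2+/+ tunicamycin and Ago2-/- thapsigargin at 0.862. Over the 13032 loci the same 3 pairs were closest, at 0.324, 0.206 and 0.236, against 0.790 to 0.920 in the other 12. Within each close pair Ddx3y was either present in both groups or listed at 0 in both, and the genotype and the treatment cannot be told apart from this pairing.

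**Figure D4:**
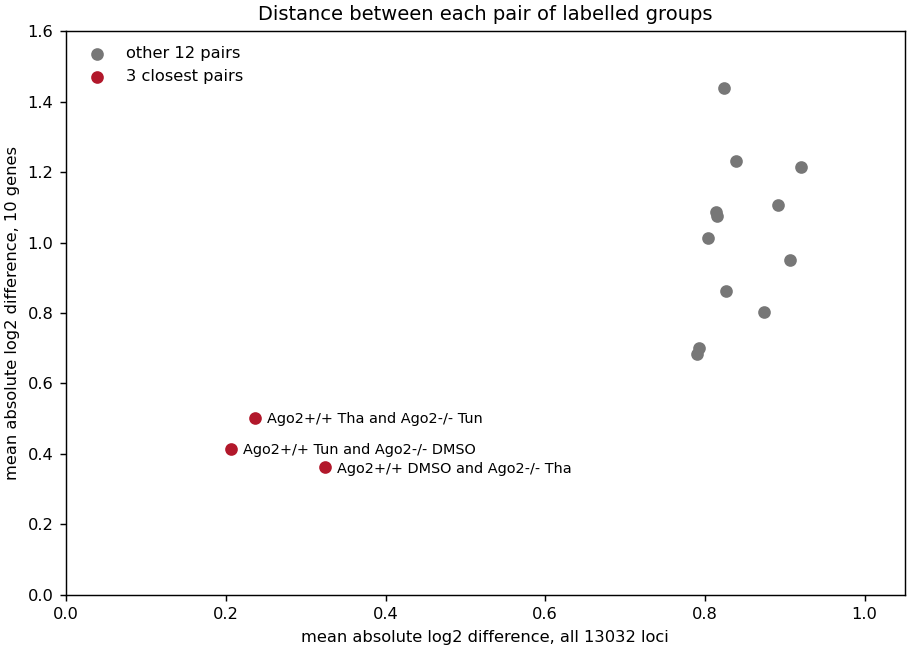
Mean absolute log2 difference over the 10 genes (vertical axis) against that over the 13032 loci (horizontal axis) for the 15 pairs of groups, each point a pair and the 3 closest in red. The 3 closest pairs lie at 0.362 to 0.502 over the 10 genes and apart from the other 12 pairs. Each of them crosses both labels, but other pairs that cross both labels lie among the other 12.

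Across the 6 groups, the highest Pearson r of log2 values was 0.941, between Fos and Junb, and it was 0.913 between Junb and Egr2 and 0.897 between Fosb and Fosl1. The lowest was -0.956, between Fos and Jun. These are descriptions over 6 values that fall into 3 close pairs. By distance of centred log2 values, the loci nearest to Fosl1 were Ank (0.172) and Fam110c (0.328), and those nearest to Myc were Mrps35 (0.173) and Gm6368 (0.185). For Fosl2 they were Dnase1l2 (0.254) and Ajuba (0.262), for Jun Cep170b (0.217) and Sirt1 (0.248), and for Fosb Tmco6 (0.208) and Ppip5k2 (0.281). Junb lay nearest to Ndrg1 (0.287) and Gm12435 (0.292), Egr2 to Slc7a11 (0.412) and Apobec1 (0.485), and Egr1 to Stard5 (0.465) and Ttyh2 (0.477). Fos and Jund had the most distant neighbours, Gfra1 (0.691) and Gm26782 (0.697) for Fos and Gm6030 (0.497) and Ppp1ca (0.627) for Jund.

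Genes around AP-1 were read from lists, chosen with earlier results of these data known, and described by counts. Here too, a gene such as Mmp13 could pass the floor only through the groups where it was high. The shares over all loci used the same floor. No count limited to genes at 1 FPKM or more in all groups was made for the lists. Of 15 AP-1 target genes, 12 reached 1 FPKM and all 12 differed by 2-fold between the highest and lowest group, against 42.6% of all loci, with a median of 2.06 against 0.86. Areg, an EGF receptor ligand, was at 3.71, 34.8 and 0.263 FPKM in Ago2+/+ DMSO, tunicamycin and thapsigargin and at 65.8, 0.364 and 7.05 in Ago2-/-. Ccnd1, the cyclin of the G1 phase, measured 85.7, 207 and 13.4 FPKM under the Ago2+/+ label and 192.8, 10.6 and 114 under the Ago2-/- label. Mmp13, a collagenase, was at 2.06 FPKM in Ago2+/+ tunicamycin and 3.15 in Ago2-/- DMSO and below 1 in the others. All 3 were highest in the same 2 groups as Fosl1. They are the widest-ranging targets of the list, and those 2 groups were the closest pair over all loci. Not all targets followed Fosl1. In Ago2+/+, Plau and Vegfa were higher under thapsigargin, where Fosl1 was lower, and Lif was lower under tunicamycin, where Fosl1 was higher. A link to Fosl1 was not tested. Under tunicamycin, 6 targets were higher and 1 lower of 11 in Ago2+/+, beside 10.7% and 9.31% of all loci, and none higher and 8 lower of 11 in Ago2-/-, beside 13.2% and 11.7%. Under thapsigargin, 2 were higher and 3 lower of 10 in Ago2+/+, beside 10.3% and 8.71%, and 2 higher and 4 lower of 12 in Ago2-/-, beside 9.43% and 10.9%.

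Of 30 other immediate early genes, 28 reached 1 FPKM and 19 passed 2-fold between the highest and lowest group, against 42.6% of all loci, with a median of 1.62 against 0.86. Of these, Npas4 passed the floor only through Ago2+/+ thapsigargin, at 1.19 FPKM. Ptgs2, the inducible cyclooxygenase, was at 221 FPKM in Ago2+/+ tunicamycin and 228 in Ago2-/- DMSO, against 9.78 to 24.4 in the other 4. With tunicamycin, 6 of 27 were higher and 2 lower in Ago2+/+, beside 10.7% and 9.31% of all loci, and 6 higher and 7 lower in Ago2-/-, beside 13.2% and 11.7%. With thapsigargin, 7 of 27 were higher and 2 lower in Ago2+/+, beside 10.3% and 8.71%, and 1 higher and 5 lower in Ago2-/-, beside 9.43% and 10.9%. Among the MAP kinases and their phosphatases, 12 of 26 passed 2-fold, a share near the 42.6% of all loci, with a median of 0.94 against 0.86. Dusp4, a MAP kinase phosphatase, was at 37.0 FPKM in Ago2+/+ tunicamycin and 40.2 in Ago2-/- DMSO and at 1.35 to 5.04 elsewhere. Spry1, an inhibitor of receptor tyrosine kinase signalling, was at 0.278 and 0.467 FPKM in Ago2+/+ DMSO and Ago2-/- thapsigargin and at 2.21 to 4.32 elsewhere. Map2k6, a p38 kinase kinase, was highest in Ago2-/- DMSO at 6.93 FPKM.

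SRF and the ternary complex factors bind the promoters of many immediate early genes. Of their list, which also holds other genes such as Nab1 and Mkl1, 3 of 11 passed 2-fold, median 0.63. Over all loci, 42.6% passed 2-fold, with a median of 0.86. Nab1, a corepressor of EGR proteins, was at 5.66 and 5.85 FPKM in Ago2+/+ DMSO and Ago2-/- thapsigargin, 20.5 and 19.2 in Ago2+/+ thapsigargin and Ago2-/- tunicamycin, and 40.4 and 38.5 in Ago2+/+ tunicamycin and Ago2-/- DMSO. The others were Mkl1, at 14.9 to 33.7 FPKM, and Elk4, whose locus also names Slc45a3, at 11.9 to 26.6. Among AP-1 partners 3 of 9 passed 2-fold (Batf3, Maf and Mafg), median 0.78, also beside 42.6% and 0.86 over all loci. Mafg shares its locus with Sirt7. The MYC network had 5 of 13 past 2-fold, median 0.92, and the MYC target genes 8 of 20, median 0.71, both near the 42.6% of all loci. Of the MYC targets, Ccnd2 was at 14.6 and 15.1 FPKM in Ago2+/+ tunicamycin and Ago2-/- DMSO and at 56.3 to 73.3 elsewhere, the reverse of Ccnd1 in those 2 groups. Ldha, the lactate dehydrogenase of glycolysis, ranged from 479 to 1414 FPKM, and Ncl, a nucleolar protein, from 445 to 1093.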

How the data were processed

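RNA was sequenced from 18 libraries of mouse embryonic fibroblasts, 3 in each of 6 groups set by the library titles; for 4 libraries the source and genotype labels disagree. Per the labels, the authors used FastQC 0.11.7, HISAT2 2.1.0, StringTie 1.3.4d, Cuffdiff 2.2.1 and GRCm38, and the methods name Ensembl release 91. The deposited table gives 1 FPKM per group and locus, pooled by the authors over replicates. Its fold changes, test statistics, p and q are the authors' own comparisons and were not used. The 10 genes and all lists were chosen with earlier results of these data known.

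The analysis (Python 3.11.15, pandas 2.3.3) took differences of log2(FPKM + 0.1), without a test, since the table used gives no value per library and so no spread. A difference counted from 2-fold, with at least 1 FPKM in either group; the counting was checked on simulated data. Where 2 loci named a gene, the higher was used. Between groups, the fullest 2% bin of ratios of values under 0.1 FPKM held only 1.63% to 3.74% of loci, so whole reads were not recovered and depth is unknown. Text names all 10 genes, the 3 widest-ranging genes of each list and the 2 loci nearest each gene by Euclidean distance of centred log2 values. Other pseudocounts, floors, folds and median centring were tried.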

Additional observations from a re-analysis of the deposited data

Results flagged for a closer look

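In the plot of differences, 5 changes ran past 2-fold in opposite directions in the labelled genotypes. The difference between the genotypes was not tested, since each group has 1 pooled value. Given as the change labelled Ago2-/- minus that labelled Ago2+/+, on the log2(FPKM + 0.1) scale, Fos under tunicamycin differed by -3.43, with 2.24 in Ago2+/+ and -1.19 in Ago2-/-. For Fosl1 under tunicamycin it was -4.16, from 1.20 and -2.96. Under thapsigargin the same measure was -3.88 for Fos, from 1.03 and -2.85. It was -2.33 for Fosl2, from 1.00 and -1.33, where the first value lies at the threshold itself. For Egr1 under thapsigargin it was -3.11, from 1.49 and -1.62. Opposite changes of this size were seen in 9.23% of 12861 loci under tunicamycin, against 2 of the 10 genes, and in 6.51% of 12833 loci under thapsigargin, against 3 of the 10. All 5 rest on the genotype labels that Ago2 goes against. Fos was below 1 FPKM in Ago2+/+ DMSO, so both its Ago2+/+ changes passed the floor only through the stressed group. Because the groups lay in close pairs across the labels, the opposite changes draw on nearly the same groups and are not separate results.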

How the results depend on the processing

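No paired analysis was possible because the table gives 1 value per group, and for the same reason no replicate could be left out. The error between libraries and the depth are unknown, so a 2-fold difference is a size and not a test. Counts of genes past the threshold are given for tunicamycin then thapsigargin in Ago2+/+, tunicamycin then thapsigargin in Ago2-/-, and Ago2-/- against Ago2+/+ under DMSO, tunicamycin and thapsigargin. They were 4, 4, 5, 7, 7, 3 and 2. At 4-fold, 6 of the 7 moved by more than 1.5 times, to 1, 0, 2, 1, 2 and 0 (the tunicamycin contrast of genotypes excepted), and the count between the highest and lowest group went from 9 to 4. At 1.5-fold, the counts became 7 and 8 for tunicamycin in Ago2+/+ and Ago2-/-, and 5 and 5 for genotype under tunicamycin and thapsigargin. A pseudocount of 1 lowered thapsigargin in Ago2+/+ to 2, tunicamycin in Ago2-/- to 2 and genotype under tunicamycin to 1. A floor of 5 FPKM lowered the last pair to 2 and 1 as well. A pseudocount of 0.01, no floor and centring on the median of all loci kept every count within 1.5 times. Of 70 differences of single genes, 10 crossed the 2-fold line with a pseudocount of 1 and 1 (Fosl2, thapsigargin in Ago2+/+, 0.99) with centring, and none that was past 2-fold turned in direction. The 3 closest pairs of groups were the same 3 with either pseudocount. Over the 7 comparisons, the median over all loci ran from -0.0307 to 0.0135 on the log2 scale.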

Other observations

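Some genes of the wider lists stood highest where Fosl1 was lowest. Ctgf, a secreted matricellular protein, was at 260 FPKM in Ago2+/+ thapsigargin and 125 in Ago2-/- tunicamycin, against 7.45 to 17.9 in the other 4 groups. Npas4, an activity-induced transcription factor, was at 1.19 and 0.639 FPKM in these 2 groups and at 0.0146 to 0.106 in the others. Mycl, a relative of Myc, was at 5.74 and 4.80 FPKM there, at 2.73 in Ago2+/+ tunicamycin and 2.41 in Ago2-/- DMSO, and at 0.529 in Ago2+/+ DMSO and 0.995 in Ago2-/- thapsigargin. The genes Mxd4 and Mxd3 encode relatives of the MYC antagonist MAD. Mxd4 was at 17.1 and 22.9 FPKM and Mxd3 at 11.1 and 13.3 in Ago2+/+ thapsigargin and Ago2-/- tunicamycin, both above their other 4 groups.

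Batf3, which pairs with JUN proteins, followed a different order. It was at 4.99 FPKM in Ago2+/+ DMSO and 4.56 in Ago2-/- thapsigargin, and between 0.426 and 1.74 in the other 4 groups. Maf, a large MAF protein, was at 6.14 FPKM in Ago2-/- thapsigargin and between 1.27 and 1.84 in the other 5 groups.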
